A study of Mus musculus with 14 samples.

Results

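The respiratory chain is the only machinery of the mouse cell whose protein subunits are encoded in 2 genomes. It was followed here in regulatory T cells through 39 of the 30284 genes in the tables: all 13 protein-coding genes of the mitochondrial chromosome, taken by their symbols beginning with mt-, and 26 nuclear genes taken from a named list of subunits. Messenger RNA had been sequenced from regulatory T cells, the CD4 T cells that hold back immune responses under the transcription factor Foxp3, sorted by flow cytometry from the spleen of C57/B6 mice by Foxp3 and YFP. Control mice were Tln1wt/wt Foxp3cre/wt, and the others were Tln1fl/fl Foxp3cre/wt, in which a Cre recombinase driven by Foxp3 removes the floxed Tln1 allele in the cells that express it. All mice thus carried the Cre on 1 of their Foxp3 alleles, and their age is not given in the sources used here. Tln1 encodes talin-1, which binds integrin tails and switches integrins on, and the comparison addresses gene expression of these cells in its absence. Each sequenced library came from 1 or 2 animals. The 14 samples made 4 control units and 3 knockout-labelled units of 2 samples each.

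Mitochondria make ATP by passing electrons from NADH and succinate through complexes I and II, coenzyme Q, complex III and cytochrome c to oxygen at complex IV, and complexes I, III and IV pump protons that drive the ATP synthase, complex V. Complex II is built from nuclear subunits alone, while complexes I, III, IV and V each include at least 1 subunit made inside the mitochondrion. The mitochondrial genes are transcribed as long RNAs from both strands and cut into shorter messengers, some of which carry overlapping genes. Neighbouring genes thus share their transcription, and nuclear subunits are transcribed 1 gene at a time. T cells raise respiration as they are activated, and regulatory T cells are known to depend on an intact chain for their suppressive function.

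Several of the 13 mitochondrial genes overlap a neighbour or have a near-identical copy in nuclear DNA, and both facts bear on the counts given below. The messenger of mt-Atp8, a small membrane subunit of the ATP synthase (mitochondrial chromosome, positions 7766 to 7969 on the plus strand of GRCm38), also carries mt-Atp6, the proton channel subunit. The first sequence is all 204 bases of mt-Atp8, with the 43 bases that belong to mt-Atp6 as well in capitals. The second is the last 40 bases of mt-Nd4l, with the 7 bases shared with mt-Nd4 in capitals, and the third is the last 40 bases of mt-Nd5, with the 14 bases that mt-Nd6 covers on the other strand in capitals. All sequences are of the GENCODE M21 transcripts, read 5′ to 3′.

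mt-Atp8: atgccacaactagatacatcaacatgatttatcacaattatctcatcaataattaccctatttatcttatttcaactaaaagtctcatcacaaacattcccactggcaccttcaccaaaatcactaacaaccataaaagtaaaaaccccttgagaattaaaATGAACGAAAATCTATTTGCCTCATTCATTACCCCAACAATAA
mt-Nd4l end: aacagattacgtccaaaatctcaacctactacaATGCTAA
mt-Nd5 end: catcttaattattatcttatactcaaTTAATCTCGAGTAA

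A block of 7 copies lay on chromosome 1 (GRCm38, chr1:24611535-24616197, minus strand, 4663 bases). Each copy is an annotated gene to which the authors' counting could assign reads. In the pair shown here, mt-Nd3, a core subunit of complex I, and its copy Gm28438 differ over 345 aligned bases by the substitution T3C (mt-Nd3 base, position from the first base of its transcript, base of the copy), in capitals. The other pair shows the ends of mt-Atp6 and its copy Gm10925, which have no substitution over 678 aligned bases, and the capitals mark the 3 bases past the end of the annotated copy.

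mt-Nd3 start: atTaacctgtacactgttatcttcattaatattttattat
Gm28438 start: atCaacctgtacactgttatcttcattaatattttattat
mt-Atp6 end: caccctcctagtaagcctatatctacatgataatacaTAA
Gm10925 end: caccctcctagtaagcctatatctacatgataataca

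The units held between 12851338 and 56109080 reads assigned to genes, with 12851338 to 39214146 in the control units and 38811379 to 56109080 in the knockout-labelled units. Control unit 3 held 39214146 reads, within the knockout-labelled range, and the other controls held 12851338 to 20863055. Depth thus differed between the groups except for control unit 3, and its part in the results below was not tested. Levels are given as CPM, reads scaled to a common library size after TMM normalization. All genes tested (15775) had a median log2 fold change of 0.06, and edgeR's quasi-likelihood test called 2144 of them, 13.6%, at an adjusted p of 0.05. The calls split into 1116 upward and 1028 downward, or 827 and 566 with an offset for GC content and transcript length. Total Tln1 messenger stood at 543 to 847 CPM among controls and at 788 to 1014 CPM among the other units, so the total did not show the deletion (log2 fold change 0.43, adjusted p = 0.126 in edgeR), and directions below rest on the labels. Foxp3 was at 324 to 478 CPM in the controls and at 370 to 514 CPM in the knockout-labelled units. Markers of other cells differed between the groups: summed over each whole list, 14 neutrophil and myeloid markers reached 4.40 to 90.0 CPM in controls and 412 to 2035 CPM in knockout-labelled units (10 rose), 12 B cell markers 46.6 to 119 and 240 to 473 CPM (8 rose), 10 dendritic cell markers 35.3 to 136 and 475 to 762 CPM (5 rose), 12 erythroid markers 11.7 to 112 and 193 to 4264 CPM (none passed in edgeR, 11 at an unadjusted p below 0.05), and 10 CD8 T and NK cell markers 39.4 to 48.4 and 67.5 to 128 CPM (5 rose). The 11 regulatory T cell markers summed to 4784 to 5398 CPM and 2947 to 4015 CPM (4 fell). This list holds Foxp3, Il2ra, Ctla4, Ikzf2, Ikzf4 and Tnfrsf18 beside the general T cell genes Cd4, Cd3e, Cd3d, Cd3g and Trac. Over all lists only 1 marker, a neutrophil and myeloid one, had no read in any control unit. The part of these cells in the results below was not tested, and in bulk RNA fewer cells of a type and less RNA per cell cannot be told apart.

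Of the 13 mitochondrial genes, 3 fell in the knockout-labelled units, mt-Nd3, mt-Atp8 and mt-Nd6, and none rose, whereas of the 26 nuclear genes none passed the test. All 39 passed the filter on low counts. In all genes tested, 6.52% were called lower and 7.07% higher, against 3 of 13 (23.1%) mitochondrial genes called lower. Among genes of the nuclear genome below 40% GC, as 12 of these 13 are, 28.2% were called lower. For the 144 of those genes that are also under 1200 bases the share was 4.86%, and the median length of the 13 is 784 bases. The count of 3 was 2 with the reads of copies added, 4 without control unit 3, and 1 without knockout-labelled unit 3; without any other single unit it was 2. The nuclear count of 0 from edgeR compares with 0 in the DESeq2 Wald test. At an unadjusted p below 0.05 in edgeR there were 5 of the 26 nuclear genes, against 5140 of all 15775 genes tested. All 13 mitochondrial genes had a log2 fold change below 0, with a median of -0.33 and a range from -2.12 to -0.10, but 9 of them were above 0 once GC content and transcript length were fitted as an offset. The nuclear genes had a median of -0.06 and a range from -0.68 to 0.53, with 10 above 0 and 16 below; without control unit 2 or without knockout-labelled unit 2 their median was 0.00 or 0.06. No test of the difference between the genomes was made.

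**Figure D1:**
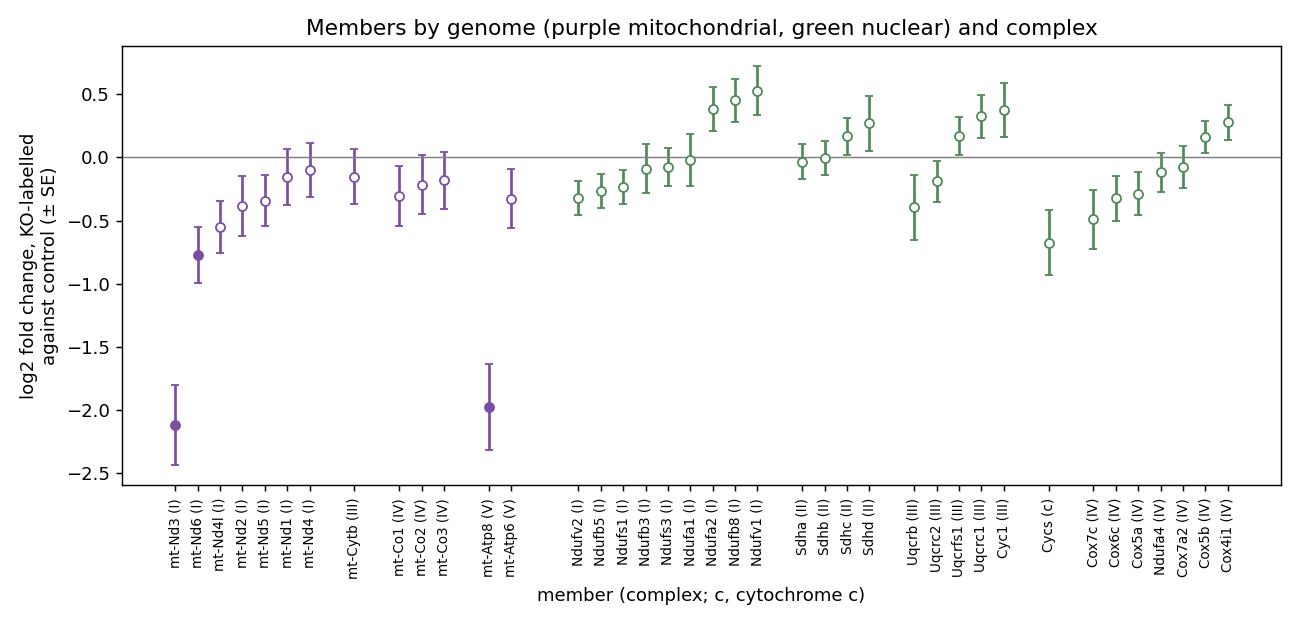
Log2 fold change (knockout-labelled against control units, ± SE from edgeR, 4 and 3 units) of each of the 39 genes, grouped by genome and complex. Filled points passed an adjusted p of 0.05: mt-Nd3, mt-Nd6 and mt-Atp8, all below 0; the 26 nuclear genes scatter on both sides of 0.

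Per length, each of the 13 mitochondrial messengers had a higher mean than any of the 26 nuclear ones in both groups. In the deposited TPM, which divide reads by an effective transcript length, the mean of a nuclear gene in control units ran from 12.5 for Cycs, cytochrome c, to 393 for Sdha, the flavoprotein of complex II. Most of the Sdha TPM in both groups came from a retained-intron transcript of 239 bases with few reads (262 and 159 TPM). Its coding transcript had 53.2 and 53.6 TPM. Outside the 39 genes, the Cox7c copy Gm12338 exceeded some mitochondrial means, with 1823 TPM in the controls and 2154 TPM in the others. The lowest mitochondrial mean was 1194 ± 173 TPM (SD, n = 4) for mt-Nd5. Above it came mt-Nd4 (1878 ± 209), mt-Nd3 (1882 ± 671), mt-Nd2 (1961 ± 429), mt-Nd6 (1995 ± 421) and mt-Nd1 (2406 ± 344), whose neighbours in that order lay within their spread. The cytochrome b of complex III, mt-Cytb, stood at 3435 ± 376 TPM, mt-Nd4l at 4647 ± 857 and mt-Co3 at 5905 ± 608 TPM. At the top mt-Co2 (7454 ± 1196), mt-Co1 (7899 ± 848) and mt-Atp6 (9395 ± 1253 TPM) lay within their spread of one another. Within each control unit, however, mt-Atp6 was above mt-Co1 and mt-Co2, though barely above mt-Co1 in unit 3 (7600 against 7536 TPM). The value of mt-Atp8, 48711 ± 16999 TPM, rests on an effective length of 18.2 bases for a transcript of 204 bases, and is not comparable with the others. In the knockout-labelled units the lowest mitochondrial mean was that of mt-Nd3, 426 ± 107 TPM (n = 3). It lay above the highest mean of the 26 nuclear genes, 280 TPM for Sdha. The nearest single values in that group were 360 TPM for mt-Nd3 in unit 1 and 301 TPM for Cox4i1, a complex IV subunit, in unit 3.

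Summed over the 13 genes, mitochondrial messengers took 4.36%, 4.76%, 3.25% and 4.11% of the reads of the controls, listed here and below as units 1, 2, 3 and 4. They took 3.32%, 2.75% and 4.19% of those of the knockout-labelled units, listed as units 1, 2 and 3. The groups overlapped, with control unit 3 low among the controls and knockout-labelled unit 3 high among the others. The 95% Wilson interval of each share reached at most 0.0112 percentage points to either side, for counting error only. In CPM the sums were 41658 ± 7050 (SD, n = 4) and 33857 ± 7287 (SD, n = 3), a ratio of 0.813. In TPM the ratio was 0.510 with no overlap (65387 to 115958 against 46626 to 56411), and without mt-Atp8 it was 0.764 with overlap. The 26 nuclear genes summed to 1367, 1620, 1464 and 1486 CPM in the controls and to 1523, 1283 and 1668 CPM in the knockout-labelled units, a ratio of means of 1.00. Mitochondrial reads were 32.2, 29.9, 21.8 and 28.4 times nuclear reads in the controls and 21.4, 21.2 and 25.0 times in the knockout-labelled units, where control unit 3 lay among the knockout-labelled values.

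By complex, the same ratio overlapped between the groups in each of the complexes that draw on both sets of genes. In complex I it was 31.5, 28.3, 20.0 and 29.5 in the controls against 20.8, 21.5 and 24.0. In complex III, with mt-Cytb over 5 nuclear genes, it was 12.7, 12.3, 8.66 and 11.4 against 9.57, 9.07 and 9.93. In complex IV it was 60.1, 66.7, 50.6 and 50.8 against 44.7, 43.5 and 55.7. Control unit 3 gave the lowest control ratio in all 3 complexes and lay within the knockout-labelled range in complex IV and just below it in the others. Of the mitochondrial sums, complex V (mt-Atp6 and mt-Atp8) had the lowest ratio of means, 0.707, followed by complex I at 0.805, complex IV at 0.833 and complex III at 0.900. Each of these sums overlapped between the groups. The nuclear sums had ratios of 0.991 in complex I, 1.03 in complex II, 1.06 in complex III and 0.983 in complex IV.

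Complex I, which oxidises NADH, held 2 of the 3 genes that fell. The subunit gene mt-Nd3 was at 475, 307, 180 and 362 CPM in the controls but at 67.0, 91.1 and 70.7 CPM in the knockout-labelled group. All control units lay above all others, and control unit 3 was the lowest control. The fall was 4.34-fold (log2 fold change -2.12 ± 0.32 SE, adjusted p = 0.00786 in edgeR), and it passed in 7 of 7 fits that left out 1 unit. However, 98.1% of the 31-base words of mt-Nd3 also occur in other genes, and with the reads of its copy Gm28438 added the values were 618, 355, 205 and 641 against 282, 219 and 251 CPM. The groups then overlapped through control unit 3, and the gene no longer passed (log2 fold change -0.86 ± 0.39, adjusted p = 0.181 in edgeR).

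The other complex I gene that fell was mt-Nd6, the 1 gene of the 13 that lies on the other strand. It had 815, 980, 502 and 723 CPM in the controls, against 420, 388 and 516 CPM in the knockout-labelled group. Control unit 3 lay below knockout-labelled unit 3, so the groups overlapped. The fall was 1.71-fold (log2 fold change -0.77 ± 0.22, adjusted p = 0.0442 in edgeR), and it passed in only 1 of 7 fits that left out 1 unit, the one without control unit 3. Without any other unit the adjusted p was between 0.0583 and 0.122. With the GC and length offset it was -0.17 and did not pass (adjusted p = 0.747).

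The small subunit gene mt-Nd4l had 641, 600, 369 and 540 CPM in the controls and 366, 304 and 429 CPM in the knockout-labelled units, with overlap through control unit 3. Its log2 fold change was -0.55 ± 0.21 (adjusted p = 0.0948 in edgeR), and it passed in the DESeq2 Wald test (adjusted p = 0.0342), with the offset (-0.80, adjusted p = 0.0321) and without control unit 3 (-0.70, adjusted p = 0.0345). The other core subunit genes of complex I did not pass and overlapped between the groups. For mt-Nd1 the controls were at 1560 to 2605 CPM and the knockout-labelled units at 1523 to 2329 CPM (log2 fold change -0.15). The values of mt-Nd2 were 1202 to 2277 and 1253 to 1680 CPM (-0.38). The longer proton-pumping subunits gave 2062 to 3136 and 2012 to 3089 CPM for mt-Nd4 (-0.10) and 1770 to 2743 and 1576 to 2115 CPM for mt-Nd5 (-0.34). Their direction was not stable: with the offset these 4 genes were between 0.50 and 0.77, none past the threshold, and mt-Nd4 was at 0.02 without knockout-labelled unit 2.

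In complex III, which passes electrons to cytochrome c, the only mitochondrial gene is mt-Cytb. Its level was 3854, 4592, 2993 and 3857 CPM in the controls and 3407, 2720 and 4200 CPM in the knockout-labelled units, with overlap (log2 fold change -0.15, adjusted p = 0.670 in edgeR; 0.54 with the offset). The mitochondrial genes of complex IV, the oxidase that reduces oxygen, showed the same overlap. For mt-Co1, its catalytic subunit, the values were 12260, 15263, 10731 and 11732 CPM against 9759, 8001 and 12534 CPM (-0.31; 0.28 with the offset). Those of mt-Co2, which takes electrons from cytochrome c, were 4890, 4386, 3016 and 4750 against 3597, 2849 and 4560 CPM (-0.22; 0.47 with the offset). In both genes knockout-labelled unit 3 was the highest of its group and lay within the control range, and unit 2 lay below every control. Knockout-labelled unit 1 lay below every control for mt-Co1 but within the control range for mt-Co2. For mt-Co3 the controls were at 3128 to 4667 CPM and the others at 2733 to 4462 CPM (-0.18; 0.57 with the offset).

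The ATP synthase genes parted although they share a messenger. The level of mt-Atp8 was 1286, 1144, 465 and 1326 CPM in the controls, against 275, 257 and 273 CPM in the knockout-labelled group. The groups did not overlap, the knockout-labelled units lay close together, and control unit 3, the control with the most reads, was again the lowest control. This was a fall of 3.93-fold (log2 fold change -1.98 ± 0.34, adjusted p = 0.0110 in edgeR), which ended without knockout-labelled unit 3 (-1.99, adjusted p = 0.0514) and held in the other 6 fits that left out 1 unit. With the GC and length offset the fold change was -1.40 (adjusted p = 0.0229). For mt-Atp6 the values were 5868, 6002, 3875 and 5610 CPM against 3817, 3528 and 5408 CPM, with overlap (-0.33 ± 0.23, adjusted p = 0.361 in edgeR; 0.53 with the offset). No overlap in the lower direction was seen in 2 of the 13 genes, mt-Nd3 and mt-Atp8, against 14.1% of all genes tested.

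**Figure D2:**
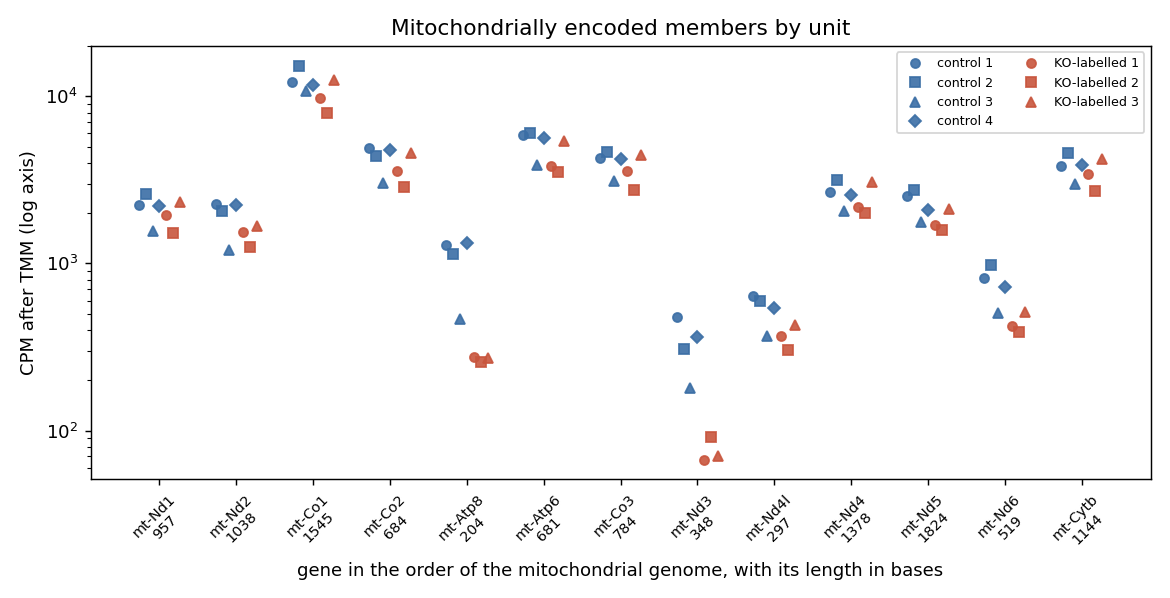
CPM (log axis) of the 13 mitochondrial genes in the order of the mitochondrial genome, with transcript length in bases, for each control unit (blue) and knockout-labelled unit (red). The groups are apart for mt-Atp8 (465 to 1326 against 257 to 275 CPM) and mt-Nd3 (180 to 475 against 67.0 to 91.1 CPM) and overlap for the other 11 genes.

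Each short gene was also set against a longer neighbour in the same unit, which removes the scaling between units. The neighbours share a strand and its primary transcript, except mt-Nd6 and mt-Nd5, which lie on opposite strands. These pairs were chosen after their values were seen, so they are descriptions. Per 100 reads of mt-Atp6 there were 21.9, 19.1, 12.0 and 23.6 reads of mt-Atp8 in the controls and 7.20, 7.28 and 5.05 in the knockout-labelled units. Per 100 reads of mt-Nd4 there were 24.0, 19.1, 17.9 and 21.1 reads of mt-Nd4l against 16.7, 15.1 and 13.9. Per 100 reads of mt-Nd5 there were 32.3, 35.7, 28.4 and 34.4 reads of mt-Nd6 against 24.6, 24.6 and 24.4. All 3 ratios were lower in every knockout-labelled unit than in any control unit, without the reads of copies. Of the reads of mt-Nd4 and its copy Gm28439, the copy held 13.7% to 26.4% in the controls and 8.48% to 12.4% in the others. Adding them to mt-Nd4 would lower the ratio to mt-Nd4 more in the controls, and was not done. For mt-Atp6 the share on its copy was higher in the knockout-labelled units, as given below. The libraries were not stranded, so reads from mt-Nd6 and from the opposite strand at the same place cannot be told apart. For mt-Nd3 per 100 reads of mt-Co3, the gene before it, the ratio was 11.1, 6.58, 5.77 and 8.61 against 1.88, 3.33 and 1.58, which did not overlap. With the reads of their copies added to both genes it was 14.4, 7.61, 6.54 and 15.2 against 7.91, 8.01 and 5.63, and the groups overlapped.

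**Figure D3:**
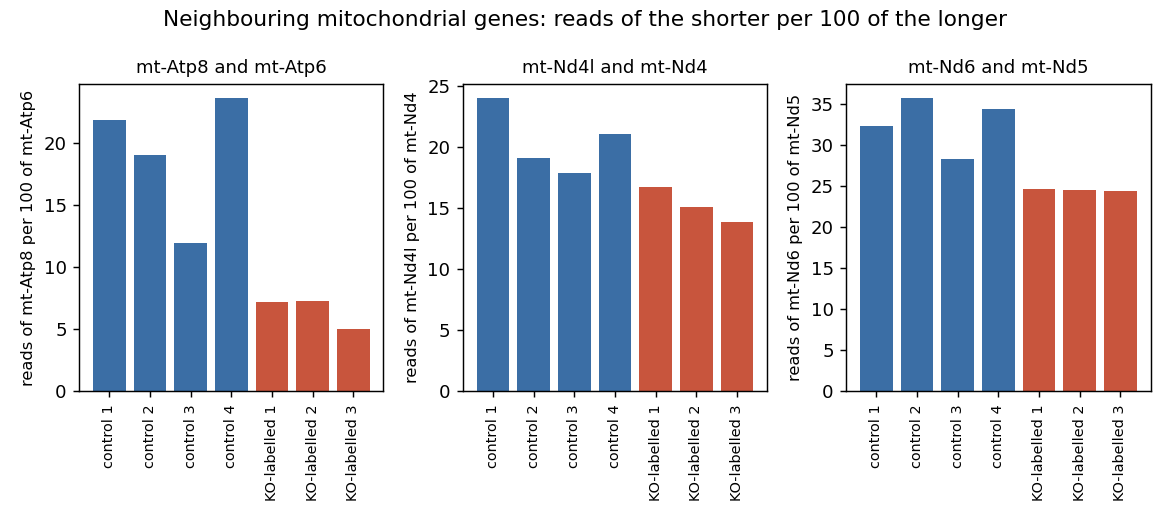
Reads of the shorter gene per 100 reads of its longer neighbour in each unit, without the reads of copies (control blue, knockout-labelled red, bars start at 0). The red bars lie below every blue bar in each panel: 5.05 to 7.28 against 12.0 to 23.6 for mt-Atp8 and mt-Atp6, 13.9 to 16.7 against 17.9 to 24.0 for mt-Nd4l and mt-Nd4, and 24.4 to 24.6 against 28.4 to 35.7 for mt-Nd6 and mt-Nd5.

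The 3 genes that fell are among the shortest of the mitochondrial genome. Split at 600 bases, a limit chosen after the values were seen, the 4 short genes mt-Atp8 (204 bases), mt-Nd4l (297), mt-Nd3 (348) and mt-Nd6 (519) had a median log2 fold change of -1.38, and 3 of them fell. The 9 longer genes had a median of -0.22 and none passed. Over all genes tested, shorter transcripts did not go with lower values: the 469 genes below 350 bases had a median of 0.06. Across the 13 mitochondrial genes, the log2 fold change and length had a Spearman correlation of 0.64, and across the 26 nuclear genes it was 0.01. These points share the same 7 units and are not independent.

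GC content ran alongside the nuclear fold changes. Of the 13 mitochondrial transcripts 12 were below 40% GC, with a range from 31.9% to 41.1%, and the nuclear ones lay between 41.1% and 56.7%. Over the 26 nuclear genes the Spearman correlation of the log2 fold change with GC content was 0.81, and over the 13 mitochondrial genes 0.47. All genes moved with GC too: the 808 nuclear-genome genes below 40% GC had a median log2 fold change of -0.58, and 28.2% of them were called lower, against 6.52% over all genes. Among the 144 of these under 1200 bases the median was -0.61 and 4.86% were called lower. With an offset for GC content and length the median of the mitochondrial genes was 0.50: the 9 longer genes lay between 0.28 and 0.77, none past the threshold, and the 4 short genes stayed below 0. Under that offset mt-Nd3 (-1.79, adjusted p = 0.00704), mt-Atp8 and mt-Nd4l passed in edgeR, and mt-Nd6 did not, as given above. With the offset and the reads of its copy added, mt-Nd3 was at -0.54 and did not pass (adjusted p = 0.352).

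**Figure D4:**
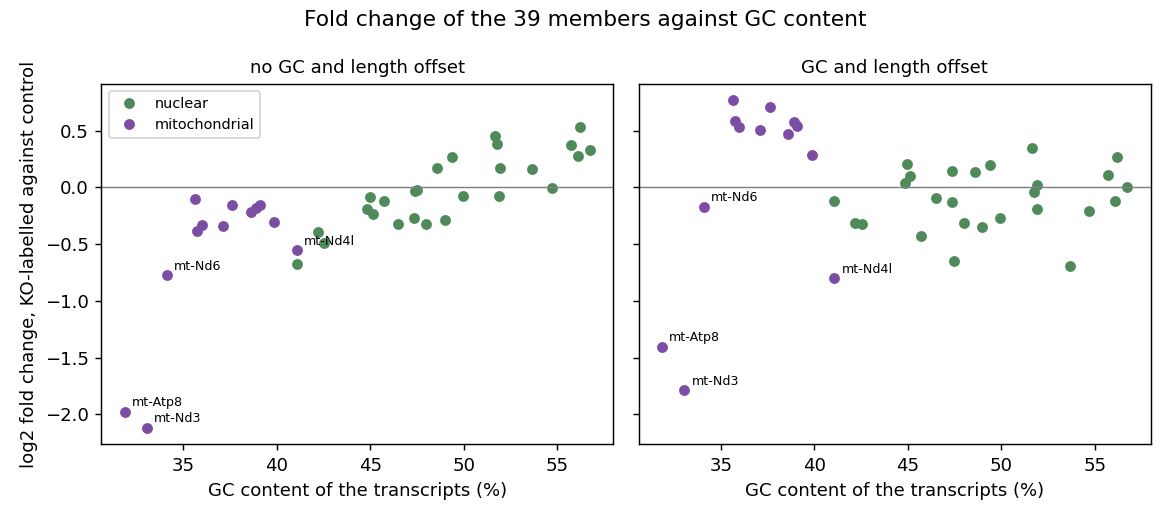
Log2 fold change of the 39 genes against the GC content of their transcripts, without (left) and with (right) the GC and length offset. On the left the nuclear genes (green) rise with GC (Spearman 0.81, 26 genes); on the right 9 mitochondrial genes (purple) lie between 0.28 and 0.77 and the 4 short ones, named, lie below 0.

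The nuclear copies of the mitochondrial genes differed from one another. Reads assigned to Gm10925, the copy of mt-Atp6, were 12.9, 6.79, 81.1 and 21.8 CPM in the controls and 830, 394 and 416 CPM in the knockout-labelled units. This was a 17.6-fold rise (log2 fold change 4.14 ± 0.98, adjusted p = 0.0498 in edgeR) in a sequence without a single difference from mt-Atp6 over the aligned bases. Gm28661, the copy of mt-Co2 and identical to it over 681 bases, was at 3.85, 38.9, 24.8 and 9.60 against 144, 103 and 143 CPM, without overlap (2.73 ± 0.76, adjusted p = 0.0701). Of the reads of mt-Atp6 and Gm10925 together, the copy held 0.219%, 0.113%, 2.05% and 0.387% in the controls and 17.9%, 10.1% and 7.15% in the knockout-labelled units. For mt-Co2 and Gm28661 the copy held 0.0788% to 0.880% and 3.05% to 3.86%. Gm28438, the copy of mt-Nd3, ranged from 24.3 to 279 CPM in the controls and from 128 to 215 CPM in the others. It held 23.0%, 13.5%, 11.9% and 43.5% of the reads of the pair in the controls, and 76.3%, 58.4% and 71.9% in the knockout-labelled units. In these 3 pairs the share on the copy was higher in every knockout-labelled unit than in any control. Gm28439, identical to the first 876 bases of mt-Nd4, fell from 959, 677, 328 and 731 to 309, 215 and 286 CPM (2.49-fold, log2 fold change -1.32 ± 0.34, adjusted p = 0.0401 in edgeR). Its share of the pair was lower in every knockout-labelled unit, 8.48% to 12.4% against 13.7% to 26.4%. Gm29216, a copy of 492 bases of mt-Co1 with 6 substitutions, was at 1695 to 2696 and 1636 to 3022 CPM, with a share of 12.1% to 15.0% in the controls and 17.0% to 19.4% in the others. Gm10222, the copy of mt-Nd4l, had no reads, and Gm28437, the copy of mt-Co3, stayed below 1 CPM in every unit. Between the copies of mt-Atp6 and mt-Co2 lie 233 bases (chr1:24614652-24614884) where the mitochondrial order places mt-Atp8; the tables hold no gene there, and whether reads of mt-Atp8 match it was not tested.

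**Figure D5:**
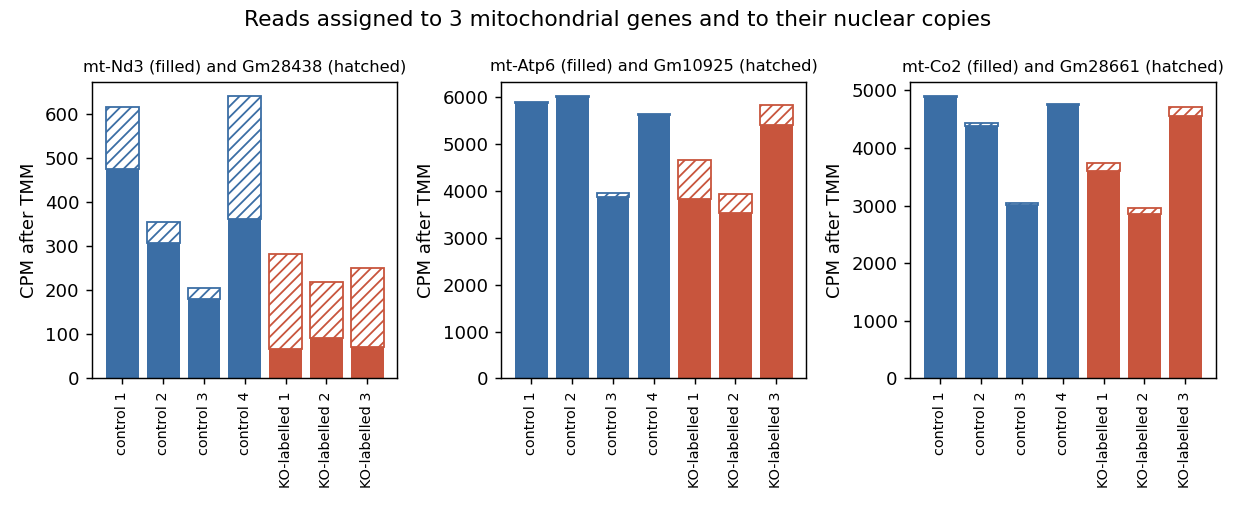
CPM of 3 mitochondrial genes (filled) and of their copies on chromosome 1 (hatched, stacked on top) in each unit, control blue and knockout-labelled red. Adding Gm28438 lifts the knockout-labelled bars of mt-Nd3 to 219 to 282 CPM, above control unit 3 (205 CPM); Gm10925 and Gm28661 add visibly in the knockout-labelled units.

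With the reads of copies added, mt-Atp6 had a log2 fold change of -0.16, mt-Co2 -0.17, mt-Co1 -0.22 and mt-Nd4 -0.28, and none passed. All 13 remained below 0 in that fit. The mitochondrial genes and their copies together summed to 34202 to 51966 CPM in the controls and 29711 to 45713 CPM in the knockout-labelled units, a ratio of means of 0.838 with overlap.

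Among the nuclear genes of complex I the leading differences went both ways. Ndufv1, the NADH-binding flavoprotein, was at 34.2, 50.7, 49.3 and 41.1 CPM in the controls and 53.6, 53.1 and 83.0 CPM in the knockout-labelled units (log2 fold change 0.53 ± 0.20, adjusted p = 0.0951 in edgeR). Ndufb8, an accessory subunit of the membrane arm, was at 23.3, 24.9, 26.4 and 19.6 against 33.3, 26.5 and 36.9 CPM (0.45 ± 0.17, adjusted p = 0.100). The iron-sulphur partner of Ndufv1, Ndufv2, was at 51.0, 61.8, 51.1 and 49.8 against 46.1, 37.5 and 44.8 CPM (-0.32 ± 0.14, adjusted p = 0.134). These 3 genes did not overlap between the groups, Ndufv1 and Ndufb8 upward and Ndufv2 downward, against 16.7% and 14.1% of all genes tested in those directions. For Ndufb8 the gap rests on control unit 3 and knockout-labelled unit 2, which were nearly equal. Ndufv1 and Ndufv2, which form the NADH entry site together, thus had fold changes of opposite sign, and neither passed the test. With the GC and length offset they were at 0.27 and -0.09; their GC contents are 56.2% and 46.5%.

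The other complex I genes overlapped. Ndufa2, a small accessory subunit, had 20.0 to 27.1 CPM in the controls and 25.4 to 34.5 CPM in the others (0.38 ± 0.17, adjusted p = 0.152 in edgeR). Ndufs1, the large iron-sulphur subunit, was at 94.0 to 124 and 80.0 to 98.2 CPM (-0.23), and Ndufs3, a core subunit of the peripheral arm, at 45.5 to 63.4 and 43.6 to 54.5 CPM (-0.08). Among the accessory subunits, Ndufb5 was at 41.0 to 52.0 and 35.6 to 42.3 CPM (-0.27 ± 0.13, adjusted p = 0.194), Ndufb3 at 18.2 to 25.1 and 16.3 to 23.1 CPM (-0.09) and Ndufa1 at 14.5 to 20.2 and 15.0 to 20.8 CPM (-0.02). The signs of Ndufa1, Ndufb3 and Ndufs3 turned when single units were left out.

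Complex II, succinate dehydrogenase, has no mitochondrial gene, and none of its 4 nuclear genes passed. Sdha was at 184, 245, 229 and 205 CPM in the controls and 210, 191 and 231 CPM in the knockout-labelled units (log2 fold change -0.04). Sdhb, the iron-sulphur subunit, was at 48.8 to 60.9 and 48.1 to 58.7 CPM (0.00), with Sdhc and Sdhd, the membrane anchors, at 34.4 to 44.8 and 39.4 to 52.1 CPM (0.17) and at 35.9 to 59.2 and 42.1 to 72.7 CPM (0.27). In TPM, Sdha looked different: 387, 400, 413 and 373 TPM in the controls and 285, 284 and 272 TPM in the others, with no overlap. Most of that TPM came from Sdha-204, a retained-intron transcript of 239 bases, with 262 ± 17.7 TPM in the controls and 159 ± 5.65 TPM in the knockout-labelled units. Its reads were few, 13.3, 14.2, 11.0 and 12.2 against 8.45, 7.32 and 8.09 CPM. The coding transcript Sdha-201 of 2900 bases held 168 ± 23.5 CPM and 176 ± 22.6 CPM, or 53.2 and 53.6 TPM.

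A short transcript of Sdhc, Sdhc-203 of 298 bases, was likewise lower without overlap (7.84, 9.56, 8.04 and 8.36 against 7.11, 5.64 and 3.80 CPM). Of the 7 transcripts of nuclear members below 350 bases with a mean of at least 1 CPM, these 2 were lower without overlap and none was higher without it; the transcripts were looked at after the gene values were seen. Over all nuclear-genome transcripts, 12.7% of the 220 under 250 bases and 9.95% of the 563 from 250 to 350 bases were lower without overlap, against 10.6% over all lengths. The shares for short transcripts were thus near that for all lengths.

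The nuclear genes of complex III and cytochrome c did not pass. Uqcrc1 and Uqcrc2, the core proteins, differed in sign, with 80.1 to 110 and 101 to 146 CPM (log2 fold change 0.32) and 93.8 to 127 and 76.7 to 109 CPM (-0.19). The Rieske iron-sulphur protein gene Uqcrfs1 was at 38.4 to 50.8 and 43.4 to 54.7 CPM (0.17), and Cyc1, cytochrome c1, at 37.6 to 59.4 and 48.8 to 81.2 CPM (0.38). Uqcrb, a small ubiquinone-binding subunit, was at 53.6, 32.5, 28.9 and 60.5 against 37.1, 29.5 and 33.1 CPM (-0.39), with control units 1 and 4 high. Cycs, the mobile electron carrier, was at 28.9, 31.5, 19.4 and 45.8 CPM in the controls and 21.7, 17.2 and 19.9 CPM in the others, with control unit 3 among the knockout-labelled units. Its log2 fold change was the lowest of the nuclear genes, -0.68 ± 0.26 (adjusted p = 0.103 in edgeR). It was -0.85 without control unit 3 (adjusted p = 0.0367) and -0.12 with the GC and length offset (adjusted p = 0.793). Its transcripts share words with processed copies elsewhere, of which Gm10108 rose 2.46-fold (adjusted p = 0.0119 in edgeR), and with the reads of the copies added it stood at -0.28.

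In complex IV, Cox4i1, a regulatory subunit, was at 97.4, 120, 123 and 110 CPM in the controls and 140, 116 and 153 CPM in the knockout-labelled units (0.28 ± 0.14, adjusted p = 0.194 in edgeR). Its retained-intron transcript Cox4i1-204 was at 26.9 and 57.2 CPM on average, with overlap. The main coding transcript, Cox4i1-201, went the other way, at 56.5 to 70.4 and 48.8 to 56.2 CPM, barely without overlap. Of 94 transcripts of nuclear members, 9.57% were lower without overlap and 2.13% higher, against 10.6% and 11.9% over all nuclear-genome transcripts. Cox7c, a small membrane subunit, was at 34.4, 23.1, 19.9 and 39.2 against 20.7, 21.4 and 20.0 CPM (-0.49 ± 0.23, adjusted p = 0.175; -0.12 with its copies). The 2 higher control values of Cox7c came from units 1 and 4, as for Uqcrb, and these were the units with the fewest reads (12851338 and 13458535). Cox6c, another small subunit, was at 46.8 to 75.5 and 45.4 to 54.5 CPM (-0.32), and Cox5a, at the matrix side, at 34.0 to 46.4 and 26.3 to 37.5 CPM (-0.29). Ndufa4, once counted with complex I and now with complex IV, was at 48.6 to 64.7 and 41.1 to 54.9 CPM (-0.12), and Cox7a2, another small membrane subunit, at 27.1 to 35.5 and 23.8 to 33.5 CPM (-0.08). Cox5b, a zinc-binding subunit, was at 34.4 to 38.2 and 38.2 to 44.5 CPM (0.16), and it was the 1 nuclear gene to pass with the GC and length offset, in the other direction (-0.70, adjusted p = 0.0198). By complex the nuclear medians were -0.08 in complex I, 0.08 in complex II, 0.17 in complex III and -0.12 in complex IV.

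Of 55 other nuclear subunits of complexes I, III, IV and V tested, 3 rose and 3 fell (10.9% called, against 13.6% of all genes tested). In complex I, 2 of 27 fell. Ndufa12, an accessory subunit, went from 13.1 ± 0.41 (n = 4) to 4.07 ± 2.48 CPM (n = 3; log2 fold change -1.69, adjusted p = 0.0194 in edgeR), with 20.2% of its words shared with other genes. Ndufab1, the mitochondrial acyl carrier protein, went from 36.2 ± 3.86 to 23.7 ± 3.17 CPM (-0.61, adjusted p = 0.0312). In complex III, 1 of 4 rose, the small subunit Uqcr11, from 10.3 ± 0.42 to 19.0 ± 7.16 CPM (0.89, adjusted p = 0.0411). In complex IV, 2 of 8 rose, both isoforms known from muscle and testis and low here: Cox6a2 from 0.28 ± 0.30 to 2.25 ± 0.66 CPM (3.14, adjusted p = 0.0229) and Cox6b2 from 1.15 ± 0.47 to 6.62 ± 5.66 CPM (2.51, adjusted p = 0.0197). Of 16 nuclear ATP synthase subunits Atp5j, coupling factor 6, fell from 76.5 ± 12.0 to 52.3 ± 3.96 CPM (-0.55, adjusted p = 0.0391) and none rose.

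Of 44 genes that build the complexes, 4 (9.1%) were called lower and none higher, against 6.52% and 7.07% of all genes tested. Cox20, a chaperone for mt-Co2, fell from 72.2, 83.6, 56.0 and 71.5 CPM to 40.6, 38.4 and 28.7 CPM (log2 fold change -0.98, adjusted p = 0.00827 in edgeR), with every control above every other unit. The complex I assembly factor Ndufaf4 (-0.63, adjusted p = 0.0340), the ATP synthase assembly factor Atpaf1 (-0.74, adjusted p = 0.0408) and Tmem126b, which also assembles complex I (-0.62, adjusted p = 0.0470), made up the count. Tmem126b lay outside the naming rule and was named after its value was seen.

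Genes that maintain, transcribe and process the mitochondrial genome were called in both directions. The share called was 15.0% for maintenance and transcription and 15.0% for RNA processing and decay, against 13.6% of all genes tested. In the list for DNA maintenance and transcription 1 of 20 rose and 2 fell, with a median of -0.34. Polrmt, the mitochondrial RNA polymerase, rose from 29.6 ± 3.72 to 47.5 ± 7.94 CPM (log2 fold change 0.68, adjusted p = 0.0237 in edgeR). Mterf1a, a transcription termination factor, fell (-0.95, adjusted p = 0.0256, with 39.2% of its words shared), as did Rrm2b, a ribonucleotide reductase subunit that supplies mitochondrial DNA synthesis (-0.71, adjusted p = 0.0268). Of 20 genes for mitochondrial RNA processing and decay, Ptcd1, which acts on leucine transfer RNA precursors, rose (0.59, adjusted p = 0.0370). Mtpap, the mitochondrial poly(A) polymerase (-0.45, adjusted p = 0.0425), and Pnpt1, a 3′ exonuclease of mitochondrial RNA (-0.47, adjusted p = 0.0469), fell. Of 11 regulators 2 fell, Gabpb1, a subunit of nuclear respiratory factor 2 (-0.58, adjusted p = 0.0314), and Yy1, a zinc-finger transcription factor (-0.66, adjusted p = 0.0368). Idh2, the mitochondrial NADP-dependent isocitrate dehydrogenase, was the 1 of 14 tricarboxylic acid cycle genes to rise (0.92, adjusted p = 0.0387). None of 49 genes of the large mitochondrial ribosomal subunit passed in edgeR, and their median was 0.03. At an unadjusted p below 0.05 there were 8 of them, against 5140 of all 15775 genes tested. Over all these lists 6 of 213 genes rose and 13 fell, 8.9% called against 13.6% of all genes tested. Values with the GC and length offset or without single units were not taken for the list genes. How far their calls depend on GC content or on single units was not tested.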

How the data were processed

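The 14 deposited tables, 1 per sample, are output of kallisto run by the authors on GRCm38, per the submitters' processing notes. Neither the kallisto version nor the annotation release is given in the sources used here. Estimated counts, the reads assigned to each transcript, are not normalized in the authors' tables. TPM values stand beside them as deposited, per the file headers, scaled by an effective length that for long transcripts is the length less 199 bases. Lengths and effective lengths (the other columns the authors deposited) were the same in all 14 tables. The kit was non-stranded, per the labels' protocols.

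Of 88198 transcripts 2079 had no gene in GENCODE M21 and were left out (1.17% to 1.28% of a unit's reads). Estimated counts were summed per gene, the 2 samples of a unit (1 first number of the titles) were added, and sums were rounded. For genes, edgeR 4.0.16 in R 4.3.3 was used: filterByExpr, TMM, a robust quasi-likelihood fit on group over all 15775 genes that passed the filter, and Benjamini-Hochberg adjustment at 0.05. SE values come from the F statistic. On counts simulated for this comparison (15448 genes, 100 changed 2-fold and 100 changed 4-fold) it called 69% and 97% of these. Of its 176 calls 5.68% were on unchanged genes. The simulated spread depended on expression level alone, and no trend with GC content was built in. These rates thus may not hold for the real counts. The labels do not say which animals stand behind a number, and the spread behind the p-values is that between units, which may be technical. First numbers did not pair the units (see the closing part).

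A copy is a gene sharing at least 50% of its own or a member's 31-base words. The offset for GC content and length was a smooth trend per unit (mgcv 1.9.3). Named genes are all 39 members, up to 3 per direction of each pathway list by adjusted p, Tln1, Foxp3 and copies. Members, lists and tests were chosen with earlier results of these data known. Alternatives were DESeq2 1.42.0 (size factors, Wald test), library-size scaling, scaling on nuclear genes, no filter beyond 1 read in all, the offset, copies added, each sample number alone, a replicate block and leaving out each unit; the offset with copies added was chosen after seeing the data. No set test was run.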

Additional observations from a re-analysis of the deposited data

Results flagged for a closer look

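In the group of 4 control units, 1 unit stood apart from the other 3 for 2 member genes and for 1 marker list, among 49 such groups examined; chance gives about 1 in 20. Ndufa4 had 64.7 CPM in control unit 4, against 48.6 to 51.0 CPM in the others. Ndufv2 had 61.8 CPM in control unit 2, against 49.8 to 51.1 CPM in the others. The 10 dendritic cell markers summed to 136 CPM in control unit 1, against 35.3 to 49.2 CPM in the others. The values of the mitochondrial genes in these units are those given above.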

How the results depend on the processing

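Over all genes, edgeR called 1116 higher and 1028 lower; the DESeq2 Wald test called 1839 and 1707, and the GC and length offset 827 and 566 (831 and 565 with copies added too). Leaving out 1 unit gave 449 to 1120 higher and 309 to 978 lower. Same-numbered units of the 2 groups did not deviate together (correlations of 0.03, -0.12 and -0.05 for numbers 1 to 3), and with the number as a replicate block on 3 units a group, 325 genes were called higher and 228 lower. Under the block 1 mitochondrial gene was called lower, mt-Nd3 (adjusted p = 0.0409); mt-Atp8 (adjusted p = 0.0508) and mt-Nd6 (0.181) no longer passed, and 0 nuclear genes did.

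Leaving out 1 unit left 1 to 4 mitochondrial genes lower (1 without knockout-labelled unit 3, 4 without control unit 3) and 0 to 1 nuclear genes (Cycs, without control unit 3). The offset, with or without copies added, gave 1 lower nuclear gene, Cox5b. The median of the mitochondrial genes was 0.50 with the offset and 0.52 with copies added as well, and without single units it ran from -0.47 to -0.21. That of the nuclear genes ran from -0.13 to 0.058 without single units. The ratio of mitochondrial sums was 0.510 in TPM.

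Signs turned for single genes, and of these only Cox5b passed the threshold after the turn. With the offset the log2 fold changes were 0.70 (mt-Nd1), 0.58 (mt-Nd2), 0.77 (mt-Nd4), 0.50 (mt-Nd5), 0.54 (mt-Cytb), 0.28 (mt-Co1), 0.47 (mt-Co2), 0.57 (mt-Co3), 0.53 (mt-Atp6), -0.042 (Ndufa2), 0.20 (Ndufb3), 0.10 (Ndufs1), 0.14 (Sdha), -0.00070 (Uqcrc1), 0.041 (Uqcrc2), -0.12 (Cox4i1) and -0.70 (Cox5b). With the offset and copies added they were 0.71 (mt-Nd1), 0.60 (mt-Nd2), 0.61 (mt-Nd4), 0.51 (mt-Nd5), 0.55 (mt-Cytb), 0.37 (mt-Co1), 0.52 (mt-Co2), 0.58 (mt-Co3), 0.69 (mt-Atp6), -0.040 (Ndufa2), 0.20 (Ndufb3), 0.10 (Ndufs1), 0.14 (Sdha), -0.00017 (Uqcrc1), 0.039 (Uqcrc2), 0.28 (Cycs), -0.12 (Cox4i1), -0.69 (Cox5b) and 0.033 (Cox7c). Ndufa1 was at 0.0080 with library size only, 0.050 with the first sample number alone and 0.050 with the replicate block. Sdhb was at 0.022 with library size only, 0.010 without the filter and 0.036 with the second sample number alone. Without single units, values ran from -0.18 to 0.067 for Ndufa1, -0.18 to 0.056 for Ndufb3, -0.16 to 0.033 for Ndufs3, -0.11 to 0.030 for Sdha, -0.071 to 0.073 for Sdhb, -0.17 to 0.060 for Cox7a2 and -0.31 to 0.017 for mt-Nd4. The cause was not tested. Counting error was small beside the differences between units in the mitochondrial sums.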
